A study of Homo sapiens with 6 samples.

Results

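The zinc finger genes of human chromosome 19 were followed through knockdown of circular RNAs in HEK293 cells, an embryonic kidney-derived human line. Members were the protein-coding genes on chromosome 19 whose symbol is ZNF plus a number, antisense genes left out, with 60 or more counts summed over the 6 libraries. The count table held 244 such genes, 233 reached the floor, and all 233 passed the filter on low counts and entered the tests, among 63677 table rows and 22331 tested genes. Just inside the floor lay ZNF763 with 65 counts and ZNF93 with 69, and just outside it lay ZNF415 with 59 and ZNF844 with 41. Poly(A) RNA was collected 48 hours after siRNA transfection with Lipofectamine RNAiMAX. The groups were 2 libraries with siRNA to circRAB3IP (siRAB3IP), 2 with siRNA to circCAMSAP1 (siCAMSAP1), and 2 with a control siRNA that the labels call NTC (control). All came from 1 cell line, no label describes separate cultures within a group, and the p-values therefore set differences against a library-to-library spread that may be only technical.

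Zinc finger proteins of this kind bind DNA through arrays of C2H2 fingers, small folds in which a pair of cysteines and a pair of histidines hold a zinc ion. Many also carry a KRAB box, which recruits the corepressor TRIM28 and through it the histone H3K9 methyltransferase SETDB1 and the HP1 proteins. The human family grew by tandem duplication, most of all on chromosome 19, and a large part of it binds and silences transposable elements. In human cells the member ZNF274 binds the 3′ coding exons of other zinc finger genes, where TRIM28 and SETDB1 deposit H3K9 trimethylation.

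Groups followed the library IDs and the group names of the authors' deposited tables, whose normalised columns matched the count columns of the same name to within a log2 ratio range of 1e-09. The titles of 4 of the 6 libraries name another group, and the genotype labels name the knockdowns the other way round from the titles. With groups taken from the titles no gene of the 22331 was called in any of the 3 comparisons, and the members' median log2 fold change was -0.079 for siRAB3IP against control, 0.051 for siCAMSAP1 against control and -0.12 for siRAB3IP against siCAMSAP1. Every direction below therefore rests on the table names. Libraries held between 37379217 and 39637733 counts assigned to genes. The HEK293 markers KRT8, KRT18 and VIM lay between 174 and 927 CPM (counts per 1000000 of the scaled library), while PTPRC, CD14, ALB, CDH1 and MYH6, markers of other tissues, stayed under 1 CPM in every library. Of the other markers listed for other tissues, COL1A1 lay between 4.84 and 11 CPM and GFAP between 1.52 and 2.62 CPM. NEFM and PAX2, also listed for this line, stayed under 1 CPM too. The linear RAB3IP mRNA was at 68.1 and 66.7 CPM in siRAB3IP libraries, 56.3 and 61.6 CPM in siCAMSAP1 libraries, and 57.5 and 62.5 CPM in control libraries. The linear CAMSAP1 mRNA was at 156 and 150 CPM in siRAB3IP libraries. In siCAMSAP1 libraries it was at 139 and 138 CPM, and in control libraries at 138 and 136 CPM. Neither mRNA was called in any of the 3 comparisons by the edgeR test described below. Poly(A) libraries counted per gene do not measure the circular targets, so these levels are no check of the knockdown.

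Promoters of 4 members are printed because 3 of them, ZNF841, ZNF829 and ZNF468, were called higher in siRAB3IP than in control in every fit that left out 1 library, and ZNF274 is the member with a known role at other zinc finger genes. Each runs from 250 bases before to 50 after the first start listed by RefSeq, in GRCh38.p14, on the gene's strand, and capitals mark an ETS-type word, CGGAAGT or its reverse complement. They lie at chr19:52095716-52096015 (minus strand) for ZNF841, chr19:36916242-36916541 (minus strand) for ZNF829, chr19:52857570-52857869 (minus strand) for ZNF468 and chr19:58182811-58183110 (plus strand) for ZNF274.
ZNF841: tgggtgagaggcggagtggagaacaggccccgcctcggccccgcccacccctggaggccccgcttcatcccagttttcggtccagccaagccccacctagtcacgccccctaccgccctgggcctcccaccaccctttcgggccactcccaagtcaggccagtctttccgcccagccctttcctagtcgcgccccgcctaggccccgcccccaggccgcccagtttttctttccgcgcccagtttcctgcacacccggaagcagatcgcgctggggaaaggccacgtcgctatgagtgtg
ZNF829: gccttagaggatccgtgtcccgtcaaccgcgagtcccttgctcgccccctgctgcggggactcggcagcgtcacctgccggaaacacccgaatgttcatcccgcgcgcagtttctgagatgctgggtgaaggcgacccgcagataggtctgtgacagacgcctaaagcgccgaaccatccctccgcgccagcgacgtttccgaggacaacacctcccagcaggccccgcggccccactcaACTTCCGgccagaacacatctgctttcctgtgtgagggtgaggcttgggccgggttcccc
ZNF468: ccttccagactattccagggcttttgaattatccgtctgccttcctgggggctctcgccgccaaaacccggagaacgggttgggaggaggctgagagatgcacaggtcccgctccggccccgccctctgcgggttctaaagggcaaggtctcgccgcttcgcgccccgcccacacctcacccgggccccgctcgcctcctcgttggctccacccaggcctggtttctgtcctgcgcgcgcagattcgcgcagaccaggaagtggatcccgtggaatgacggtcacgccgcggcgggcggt
ZNF274: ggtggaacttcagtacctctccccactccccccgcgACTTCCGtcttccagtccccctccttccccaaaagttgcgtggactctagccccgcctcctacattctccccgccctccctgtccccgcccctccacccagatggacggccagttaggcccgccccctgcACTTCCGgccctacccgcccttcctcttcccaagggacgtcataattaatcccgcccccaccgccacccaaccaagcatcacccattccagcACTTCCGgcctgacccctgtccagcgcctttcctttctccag

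The ZNF274 promoter held 3 copies of the word and the ZNF829 promoter 1, while those of ZNF841 and ZNF468 held none. A RefSeq promoter was found for 205 members, of which 64 held the word on either strand (31.2%), against 42 of 214 promoters of ZNF genes on other chromosomes (19.6%) and 1974 of 27305 promoters in all (7.23%). It was in 5 of the 18 promoters of members called higher in siRAB3IP than in control (27.8%). Of the other words searched on both strands, GCATGCG (NRF1-type) was in 4.88% of member promoters against 4.13% of all, ATGGCGG (YY1-type) in 8.78% against 5.72%, and TGACGTC (CRE-type) in 3.90% against 3.63%. These matches describe the letters in a window and are no evidence of binding.

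A KRAB box was found in 197 of the 233 members (84.5%) and not in 36. The longest annotated protein had a median of 12 fingers, between 0 in ZNF738 and 36 in ZNF208. Levels were modest. The members' median was 3.48 CPM per kilobase in control libraries, against 4.65 over all tested protein-coding genes. ZNF146, which consists almost wholly of fingers, had the highest level per length, at 49.7 ± 0.148 CPM per kilobase in siRAB3IP, 42.9 ± 5.80 in siCAMSAP1 and 41.4 ± 1.34 in control libraries (SD, n = 2 each). ZNF121 followed, at 42.9 ± 1.41 CPM per kilobase in siRAB3IP, 41.1 ± 4.94 in siCAMSAP1 and 38.8 ± 1.74 in control libraries (SD, n = 2 each), within the spread of ZNF146 in siCAMSAP1 libraries alone. ZNF460, ZNF317, ZNF358, ZNF724, ZNF428 and ZNF426 came next, with means between 12.2 and 18.5 CPM per kilobase over the 6 libraries. The edgeR test described below called none of these 8 in either knockdown against control, while DESeq2 called ZNF146 in siRAB3IP (log2 fold change 0.27, adjusted p = 0.0480, against 0.0776 in edgeR), and the authors' deposited tables list ZNF146 and ZNF460.

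In cells with siRAB3IP the chromosome 19 zinc finger genes lay, as a list, slightly above the control cells, by small amounts in many genes. Their median log2 fold change was 0.14, against -0.01 over all genes tested, 0.00 over 235 ZNF genes of other chromosomes and 0.01 over 821 other protein-coding genes of chromosome 19. Of the 233 members 170 had a positive fold change. The edgeR quasi-likelihood test, with Benjamini-Hochberg adjustment over all genes and a threshold of 0.05, called 21 members higher (9.01%, where 6.58% of all genes tested were called higher) and 2 lower (0.858%, where 5.38% of all genes were). Among protein-coding genes with 60 or more counts the share called higher was 9.13%, so the members' share of higher calls was near that background and the scarcity of lower calls is where their counts stood apart from it. Higher calls were fewer without any 1 of the 4 libraries compared, in the members and over all genes tested alike. They were fewest without siRAB3IP replicate 2. The members' median log2 fold change then lay between 0.11 and 0.17. No test of the list was made. Some cell type markers moved in the same comparison. KRT18 (log2 fold change -0.72, edgeR adjusted p = 3.07e-04), KRT8 (-0.56, edgeR adjusted p = 0.00372) and COL1A1 (-0.79, edgeR adjusted p = 0.00355) were called lower in siRAB3IP than in control, VIM and GFAP were not called, and their part in the result was not tested.

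Without a threshold on p, both siRAB3IP libraries exceeded both control libraries in 125 members (53.6%, against 25.9% of all genes tested), and both lay below in 27 (11.6%, against 27.8%). The members' median deviation from the control mean, on the log2(CPM + 0.5) scale, was 0.10 and 0.17 in the siRAB3IP libraries and -0.04 and 0.04 in the control libraries, with no overlap. For ZNF genes elsewhere it was -0.01 and 0.01 in siRAB3IP libraries, inside the control range of -0.02 to 0.02. The summed level of the members was 5549 ± 191 CPM in siRAB3IP and 4959 ± 180.1 CPM in control libraries (SD, n = 2 each). As a share of all counts, without TMM scaling, the members took 0.525% and 0.560% in siRAB3IP and 0.483% and 0.530% in control libraries, which overlap. The summed CPM of all genes tested was also higher in siRAB3IP, at 1030240 and 1013640 against 998985 and 958023 in control libraries. In bulk RNA a change in every cell and a change in the share of cells that express a gene cannot be told apart.

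**Figure D1:**
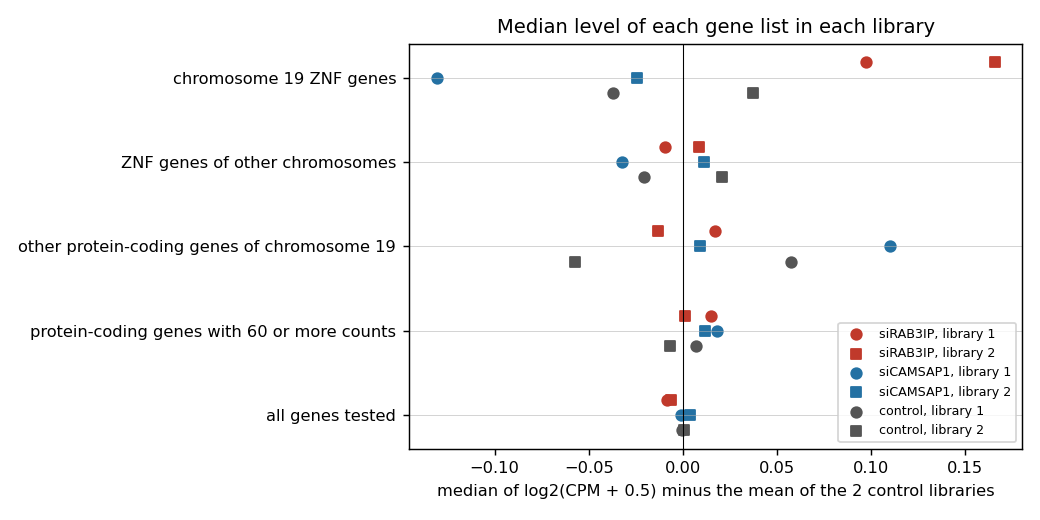
Median over each gene list of log2(CPM + 0.5) minus the mean of the 2 control libraries (x axis), with 1 point per library and red, blue and grey for siRAB3IP, siCAMSAP1 and control. For the chromosome 19 ZNF genes the siRAB3IP libraries sit at 0.10 and 0.17, to the right of the other 4, while the remaining lists stay between -0.06 and 0.11 in every library.

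**Figure D2:**
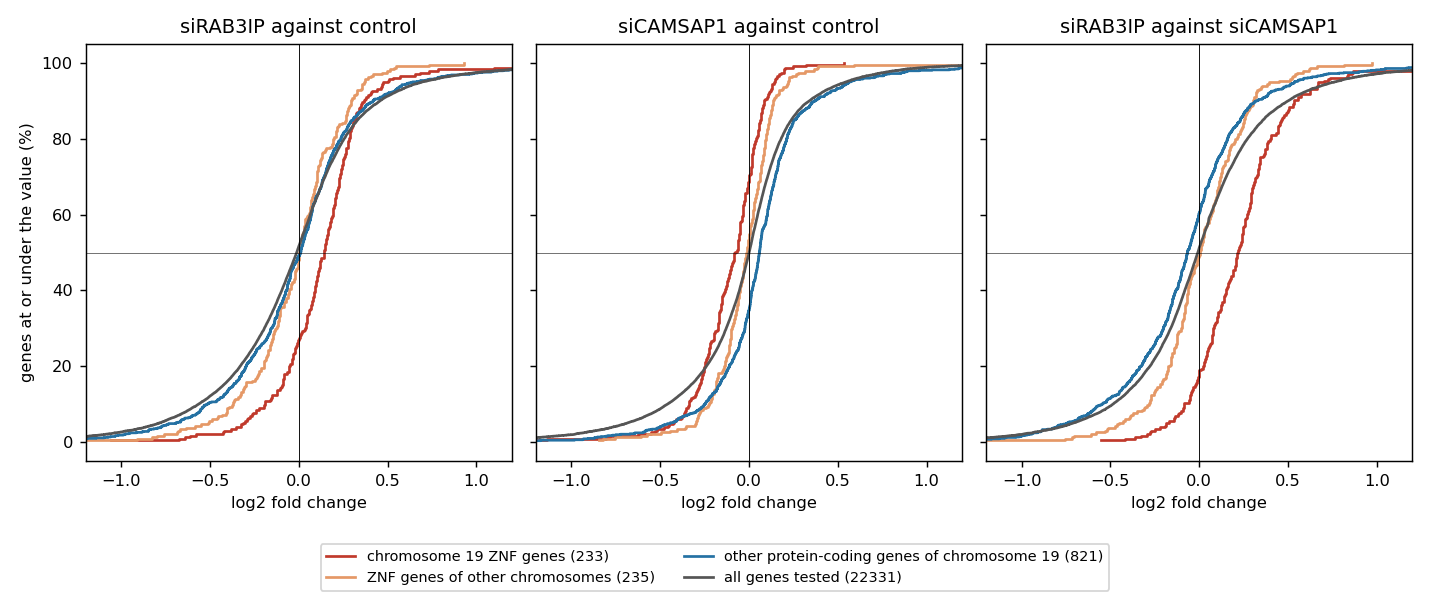
Share of genes (y axis, percent) at or under each log2 fold change (x axis, shown between -1.2 and 1.2) for the members in red and 3 other lists, in the 3 comparisons. The red curve lies to the right of the others around its median in both comparisons with siRAB3IP on top, at 0.14 against control and 0.22 against siCAMSAP1, and to their left for siCAMSAP1 against control, at -0.08.

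ZNF841, a KRAB zinc finger gene at chr19:52567719-52599018 (hg19, minus strand), showed the clearest difference among the members with at least 1 CPM. It had 36.6 and 42.5 CPM in siRAB3IP, 23.9 and 26.1 CPM in siCAMSAP1, and 21.5 and 24.3 CPM in control libraries. Both siRAB3IP libraries stood above the other 4. Against control it was 1.72-fold higher (log2 fold change 0.79, SE 0.10, edgeR adjusted p = 4.81e-04). Its exons overlap those of ZNF432 on the same strand, and ZNF432 was itself called higher (log2 fold change 0.34, edgeR adjusted p = 0.0409), so fragments near their shared bases cannot be assigned to one of them with certainty.

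ZNF829, on the long arm at chr19:37379026-37407193, had 46.5 and 46.2 CPM in siRAB3IP, 27.5 and 28.3 CPM in siCAMSAP1, and 31.5 and 31.0 CPM in control libraries. The 3 groups did not overlap, with siRAB3IP highest and siCAMSAP1 lowest. It was 1.48-fold higher in siRAB3IP than in control (log2 fold change 0.57, SE 0.08, edgeR adjusted p = 8.04e-04), and no annotated gene overlaps its exons. ZNF468, at chr19:53341261-53360902, had 54.6 and 55.9 CPM in siRAB3IP, 33.9 and 35.7 CPM in siCAMSAP1, and 42.0 and 39.3 CPM in control libraries. Again the groups were apart in the same order, and ZNF468 was 1.36-fold higher in siRAB3IP than in control (log2 fold change 0.44, SE 0.08, edgeR adjusted p = 0.00392).

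ZNF274, the KRAB and SCAN protein that marks the 3′ ends of other zinc finger genes, lies at chr19:58694396-58724928 and is overlapped by no other annotated gene. It had 48.3 and 53.2 CPM in siRAB3IP, 30.2 and 32.3 CPM in siCAMSAP1, and 36.4 and 37.0 CPM in control libraries. It was 1.38-fold higher in siRAB3IP than in control (log2 fold change 0.47, SE 0.09, edgeR adjusted p = 0.00381), a call that missed the threshold without siRAB3IP replicate 2 (edgeR adjusted p = 0.0532). ZNF677, a KRAB gene studied for promoter methylation in lung cancer, had 44.8 and 52.4 CPM in siRAB3IP, 26 and 28.4 CPM in siCAMSAP1, and 33.1 and 35.5 CPM in control libraries. Its 1.42-fold difference from control (edgeR adjusted p = 0.00486) also depended on siRAB3IP replicate 2, without which the adjusted p was 0.0720.

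The remaining members called higher changed by less or were rarer. ZNF880, ZNF600, ZNF793, ZNF583, ZNF772 and ZNF787, all between 1.31-fold and 1.42-fold higher, had control means between 12.5 and 34.4 CPM. ZNF787, which has no KRAB box, was the only one of the 21 without it. ZNF98 was 1.66-fold higher, at 3.94 and 4.21 CPM in siRAB3IP libraries against 2.35 and 2.54 CPM in control libraries. It shares 57.8% of its 50-base words with another gene, most with ZNF492, so its count depends on how such reads were placed. ZNF676 and ZNF442 were named after their values were seen, since they lie under the level of 1 CPM asked of named genes. ZNF676 had 0.873 and 2.16 CPM in siRAB3IP against 0.455 and 0.387 CPM in control libraries, and ZNF442 had 0.529 and 0.772 CPM in siRAB3IP against 0.134 and 0.242 CPM in control libraries. The other 7 members called higher had the smallest folds. ZNF614 had 67.9 and 65.4 CPM in siRAB3IP against 56.3 and 53.4 CPM in control libraries (1.21-fold), and ZNF776 had 57.9 and 55.4 CPM in siRAB3IP against 47.5 and 45.4 CPM in control libraries. ZNF850, which has 29 fingers, had 46.9 and 50.7 CPM in siRAB3IP against 36.8 and 40.4 CPM in control libraries. ZNF530, ZNF432, ZNF347 and ZNF525 lay between 26.4 and 42.9 CPM in siRAB3IP and between 20.8 and 34.3 CPM in control libraries. In all 7 both siRAB3IP libraries lay above both control libraries. These 7 were picked by calls on the same libraries, so this separation adds no support to them. The 21 folds ran between 1.21 and 3.59 with a median of 1.33, and 17 were under 1.5. The largest came from a member averaging under 1 CPM. Only 3 of the 23 calls, those of ZNF841, ZNF829 and ZNF468, passed in every fit that left out a library.

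**Figure D3:**
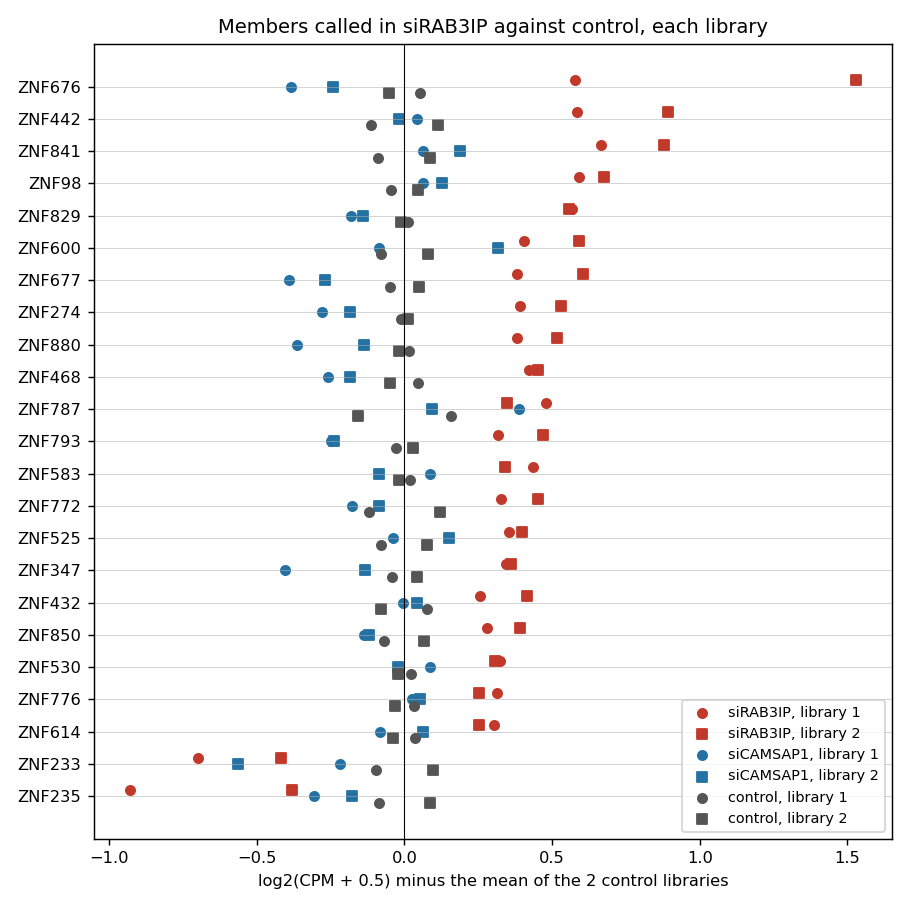
Each row is a member called in siRAB3IP against control, and each point a library, placed by log2(CPM + 0.5) minus the mean of the 2 control libraries. Red siRAB3IP points lie to the right of the grey control points in the upper 21 rows and to their left in ZNF233 and ZNF235.

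Both members called lower come from one locus. ZNF235 and ZNF233, KRAB genes in the cluster that runs between chr19:44029649 and 45579846, overlap each other on opposite strands, and the counting used no strand. ZNF235 had 4.87 and 7.35 CPM in siRAB3IP against 9.12 and 10.3 CPM in control libraries (log2 fold change -0.67, SE 0.18, edgeR adjusted p = 0.0252). ZNF233 had 3.57 and 4.45 CPM in siRAB3IP against 5.67 and 6.56 CPM in control libraries (log2 fold change -0.61, SE 0.19, edgeR adjusted p = 0.0482). Neither call passed without siRAB3IP replicate 1 or without control replicate 2, and that of ZNF233 also failed without siRAB3IP replicate 2. Across the whole list 130 members share exon bases with another annotated gene, 74 of them with one on the opposite strand. Among the other 103 members 12 were called higher (11.7%) and 0 lower, with a median log2 fold change of 0.17. Of the 178 members that share under 5% of their 50-base words with other genes, 17 were called higher (9.55%) and 2 lower (1.12%), with a median of 0.12. Over all genes tested 6.58% were called higher and 5.38% lower. Among protein-coding genes with 60 or more counts 9.13% were called higher, so the 9.55% was near that background.

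With siCAMSAP1 no member was called in either direction against control in the edgeR test described above, where 0.519% of all genes tested were called higher and 0.542% lower. The same test with a term for the library number did call members, mostly lower, and called more of all genes too, as given at the end. At an unadjusted p under 0.05 edgeR gave 2 members higher and 25 lower (10.7% lower, against 5.94% of all genes tested). DESeq2 called 0 higher and 1 lower, and limma-voom called none. The members' median log2 fold change was -0.08, against 0.00 over all genes tested, and 160 of the 233 were negative. Both siCAMSAP1 libraries lay below both control libraries in 80 members (34.3%, against 20.9% of all genes tested) and above in 16 (6.87%, against 20.6%). The members' median deviation was -0.13 and -0.03 in the siCAMSAP1 libraries, and the second lies within the control range of -0.04 to 0.04. The smallest adjusted p, 0.0602, belonged to ZNF302, with 28.8 and 32.5 CPM in siCAMSAP1 against 42.2 and 39.2 CPM in control libraries. The summed level was 4765 ± 310.2 CPM in siCAMSAP1 and 4959 ± 180.1 CPM in control libraries (SD, n = 2 each).

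Set directly against siCAMSAP1, a comparison whose fold changes do not use the control libraries, siRAB3IP again had the higher levels. Here 38 members were called higher (16.3%, where 5.14% of all genes tested were called higher) and 1 lower (0.429%, where 4.16% of all genes were). The members' median log2 fold change was 0.22, against -0.01 over all genes tested, 0.00 over ZNF genes elsewhere and -0.07 over the other protein-coding genes of chromosome 19. Folds of the 38 ran between 1.22 and 6.16 with a median of 1.42. The largest belonged to ZNF676, which averaged under 1 CPM and was not called by DESeq2. Among members with at least 1 CPM the largest log2 fold change was 0.87, in ZNF404. Because the siRAB3IP libraries enter this comparison and the one with control, the results are not independent, and 14 members were called higher in both. How many of all genes tested were called higher in both was not counted, so the 14 have no background. Higher calls were fewer without siRAB3IP replicate 2 or without siCAMSAP1 replicate 1, in the members and over all genes tested alike. The members' median log2 fold change was then 0.17 and 0.16.

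ZNF677 and ZNF829 were 1.79-fold (log2 fold change 0.84, SE 0.10, edgeR adjusted p = 2.53e-04) and 1.66-fold (0.73, SE 0.08, edgeR adjusted p = 2.29e-04) higher in siRAB3IP than in siCAMSAP1, from the levels given above. ZNF274 was 1.63-fold higher (edgeR adjusted p = 3.37e-04) and ZNF880 1.65-fold higher (edgeR adjusted p = 0.00229). ZNF528 had 38.3 and 43.4 CPM in siRAB3IP against 23.8 and 27.6 CPM in siCAMSAP1 libraries, with control libraries at 28.8 and 36.2 CPM. Its 1.59-fold difference (edgeR adjusted p = 0.00336) was one of 10 of the 39 calls that passed in every fit that left out a library. ZNF737, ZNF578 and ZNF404 were between 1.78-fold and 1.82-fold higher, at control means under 9 CPM, and each lost its call in at least 2 such fits. ZNF558, the single member called lower, had 31.0 and 31.9 CPM in siRAB3IP against 37.7 and 41.3 CPM in siCAMSAP1 libraries (log2 fold change -0.33, SE 0.09, edgeR adjusted p = 0.0298), and the control libraries were at 38.6 and 37.6 CPM. Its call was lost without any 1 of the 4 libraries compared.

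Members called higher also included genes with described functions. ZNF420, known in human cells as a KRAB repressor that binds p53, had 27.2 and 27.9 CPM in siRAB3IP against 21.2 and 22.4 CPM in siCAMSAP1 libraries. ZNF582, whose promoter methylation is used as a cervical cancer marker, had 10.1 and 10.7 CPM in siRAB3IP against 6.73 and 7.26 CPM in siCAMSAP1 libraries. ZNF568, whose mouse counterpart represses an Igf2 transcript in the placenta, had 22.7 and 20.9 CPM in siRAB3IP against 16.4 and 16.6 CPM in siCAMSAP1 libraries. The edgeR adjusted p was 0.0387 for ZNF420, 0.0146 for ZNF582 and 0.0257 for ZNF568. The calls of ZNF420 and ZNF568 were lost without any 1 of the 4 libraries compared and with GC and length trends removed, and that of ZNF582 was lost without siRAB3IP replicate 2 or without siCAMSAP1 replicate 1. These 3 genes were picked for their known roles after their values were seen. In 34 members the groups were fully ordered, with both siRAB3IP libraries above both control libraries and both siCAMSAP1 libraries below them. How many of all genes tested had this order was not counted, so the 34 cannot be set against a background.

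The genes fell into 16 clusters along the chromosome, a new one starting where neighbouring ZNF genes lie more than 1 Mb apart. The cluster at chr19:52074551-54083523 (hg19) held 37 members, each with a KRAB box. Of these, 9 were called higher in siRAB3IP than in control (24.3%, where 6.58% of all genes tested and 9.13% of protein-coding genes with 60 or more counts were) and 0 lower, with a median log2 fold change of 0.21, and ZNF841, ZNF468, ZNF677, ZNF880 and ZNF600 lie there. The cluster at the end of the long arm, at chr19:55987699-58992597, held 58 members with 6 called higher (10.3%), 0 lower and a median of 0.16. The short-arm cluster next to the centromere, chr19:19779605-24312654, had 32 members with 2 called higher (6.25%), 0 lower and the highest median among clusters of more than 2 members, 0.23. In the cluster at chr19:36673188-38307940, 3 of 26 members were called higher (11.5%), with a median of 0.19. The shares in these last 3 clusters were near the background in this comparison. Against siCAMSAP1 the shares called higher were 35.1% in the cluster at chr19:52074551-54083523 and 34.6% in that at chr19:36673188-38307940. They were 15.5% in the cluster at the end of the long arm and 15.6% in that next to the centromere. Of all genes tested 5.14% were called higher there.

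The other clusters had lower medians, down to -0.43 in a cluster of 2 members that includes ZNF114. The 24 members between chr19:11594242 and 12750912 had a median of -0.01 with 1 called higher, ZNF442, and the 23 between chr19:44029649 and 45579846 a median of 0.04 with the 2 lower calls. Set against siCAMSAP1 the first of these had a median of 0.22 and the second 0.08. Each lone gene, such as ZNF507 or ZNF473, which is part of the U7 complex that processes histone mRNA, was not called. ZNF473 had 49.7 and 44.4 CPM in siRAB3IP, 48.2 and 45.9 CPM in siCAMSAP1, and 46.2 and 43.3 CPM in control libraries. The most counted member of each cluster, from ZNF57 and ZNF791 on the short arm to ZNF331 on the long arm, was not called against control in any of the 16 by the edgeR test described above. For 1 of them, ZNF146, the DESeq2 call in siRAB3IP is given above, and the authors' deposited tables list ZNF146, ZNF460 and ZNF302. ZNF331, an imprinted gene, was at 61.3 and 63.2 CPM in siRAB3IP and 60.7 and 59.7 CPM in control libraries. Whether clusters differ was not tested.

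**Figure D4:**
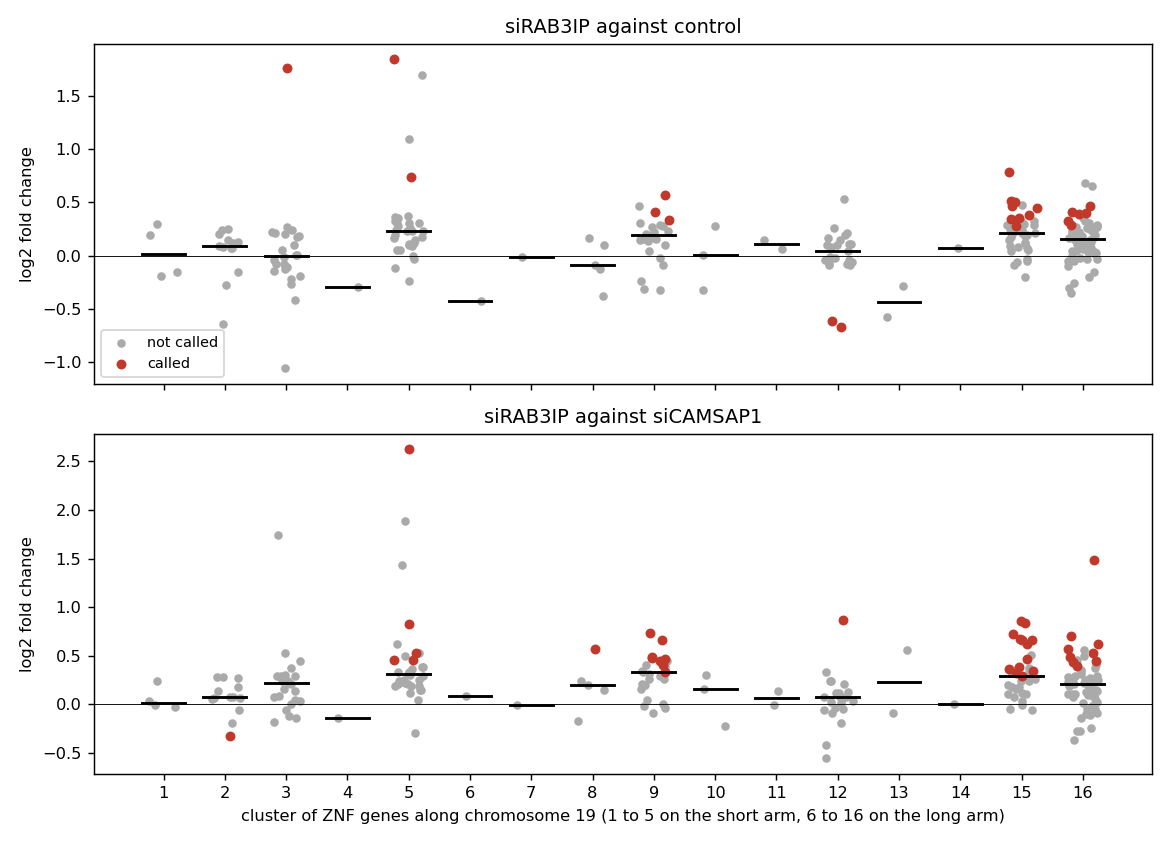
Log2 fold change (y axis) of each member by cluster along the chromosome (x axis, 1 to 16), with red points for called members and black bars for cluster medians, for siRAB3IP against control above and siRAB3IP against siCAMSAP1 below. Most red points lie in clusters 9, 15 and 16, which hold 26, 37 and 58 members.

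The members were also split by the KRAB box, a difference that was not tested. The 197 with one had a median log2 fold change of 0.16 for siRAB3IP against control, with 20 called higher (10.2%) and 2 lower, and the 36 without one had 0.02, with 1 called higher (2.78%) and 0 lower. The share with a KRAB box was near the 9.13% of protein-coding genes with 60 or more counts. Against siCAMSAP1 the median was 0.24 with a KRAB box, with 36 higher (18.3%, where 5.14% of all genes tested were) and 1 lower, and 0.03 without one, with 2 higher (5.56%) and 0 lower. On other chromosomes the 93 ZNF genes with a KRAB box had medians of 0.02 against control and 0.08 against siCAMSAP1. Of these genes 4 (4.30%) and 5 (5.38%) were called higher, where 6.58% and 5.14% of all genes tested were. In each comparison 1 (1.08%) was called lower. KRAB boxes move together with base composition here. The median GC content of the transcript was 42.0% in members with a KRAB box and 60.9% in those without, against 49.8% over tested protein-coding genes and 45.6% over ZNF genes elsewhere.

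Over the 233 members, which share the same libraries, Spearman's rho between GC content and log2 fold change was -0.33 for siRAB3IP against control and -0.41 against siCAMSAP1. Over all tested protein-coding genes it was -0.04 against control and -0.16 against siCAMSAP1. Trends with GC content and length were also removed from each library across all genes. For siRAB3IP against control, 28 members were then called higher and 3 lower, with a median of 0.13. Calls rose over all genes too, to 8.26% higher and 6.61% lower, where 6.58% and 5.38% were called with the trends kept. Against siCAMSAP1, 36 members were called higher and 2 lower, with a median of 0.18. Of all genes 5.67% were called higher and 5.48% lower there, where 5.14% and 4.16% were with the trends kept. With the number of fingers rho was 0.13 for siRAB3IP against control and 0.18 against siCAMSAP1.

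**Figure D5:**
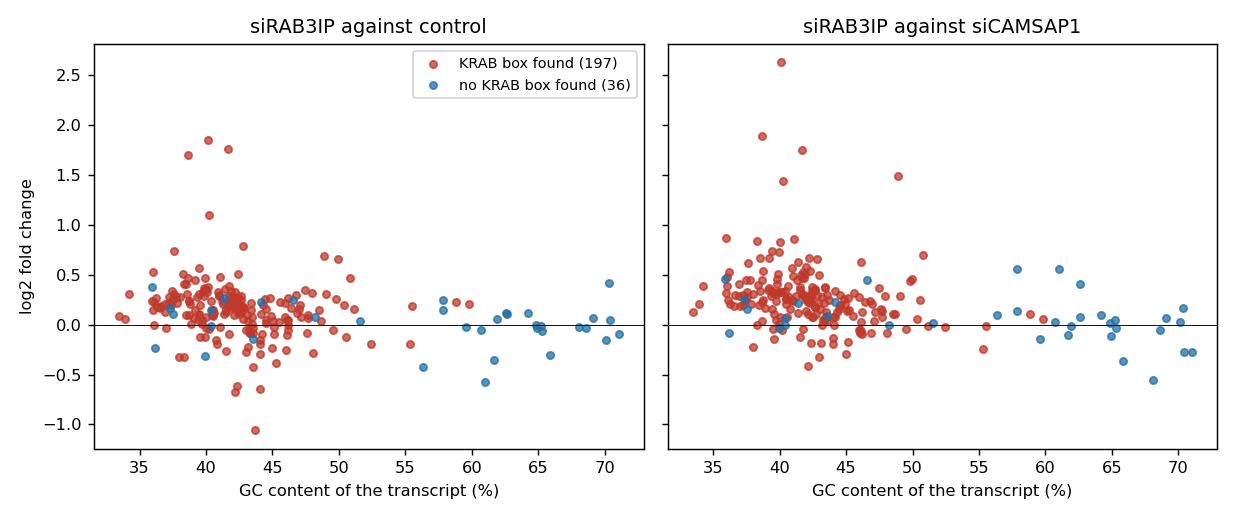
Log2 fold change (y axis) against GC content of the transcript (x axis, percent), 1 point per member, red with a KRAB box (197) and blue without one found (36). Red points lie mostly under 50% GC and above 0, while blue points reach 71.1% GC and scatter around 0.

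The proteins with which KRAB repressors act were followed in the same libraries. Of 28 listed partners 27 were matched and tested. For siRAB3IP against control 1 was called higher and 4 lower, for siCAMSAP1 against control 0 were called, and for siRAB3IP against siCAMSAP1 1 was called higher and 4 lower. Over all genes tested the shares called higher and lower were 6.58% and 5.38% for siRAB3IP against control, 0.519% and 0.542% for siCAMSAP1 against control, and 5.14% and 4.16% for siRAB3IP against siCAMSAP1. TRIM28, the corepressor itself, averaged 388 ± 17.5 CPM in siRAB3IP, 429.8 ± 31.4 CPM in siCAMSAP1 and 427 ± 31.7 CPM in control libraries (SD, n = 2 each) and was not called. SETDB1 was not called either. MORC2, a chromatin compactor that works with the HUSH complex, was called higher in siRAB3IP than in control (log2 fold change 0.36, edgeR adjusted p = 0.0229). CHD3 and CHD4, remodelers of the NuRD complex, were called lower (log2 fold changes -0.34 and -0.29), as were the DNA methyltransferases DNMT3A (-0.39) and DNMT3B (-0.41).

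The authors' deposited table for siRAB3IP lists 2192 genes, 1306 higher and 886 lower. Of these 20 are members, 19 higher and 1 lower. The highest member there is ZNF841, with a log2 fold change of 0.79 in the authors' deposited table. It also lists ZNF146 as higher, at 0.27, which missed the threshold in the edgeR fit (adjusted p = 0.0776). The authors' deposited table for siCAMSAP1 lists 474 genes, 255 higher and 219 lower. Its 2 members are ZNF302 at -0.41 and ZNF460 at -0.33. In the edgeR fit ZNF460 had 45.8 and 56.1 CPM in siCAMSAP1 against 57.0 and 73.6 CPM in control libraries and was not called (adjusted p = 0.318).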

How the data were processed

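Per the submitters' processing notes, reads were handled with STAR, featureCounts and DESeq2 on hg19. Per the file headers, the authors counted fragments per gene with featureCounts 1.6.0, primary alignments and properly paired ends only, with no strand setting, and deposited whole-number counts with gene lengths. The authors' 2 deposited comparison tables hold counts divided by size factors (a normalised signal), log2 fold changes with errors, and adjusted p-values, for the genes they list. Their signal columns served only to match names to count columns.

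Gene symbols, transcripts and coding sequences came from GENCODE 29, which named 52526 of 63677 rows. Exon overlaps came from the hg19 exon coordinates deposited with the counts. Counts were scaled by TMM, filtered with filterByExpr, and tested in all 6 libraries with edgeR 4.0.16 (quasi-likelihood, robust, 3 residual degrees of freedom) in R 4.3.3. CPM are counts per 1000000 of the TMM-scaled library. With 2 libraries against 2, the smallest exact two-sided p of a single permutation test is 0.333, so no such test was made. Fingers were counted as C, 2 to 4 residues, C, 12 residues, H, 3 to 5 residues, H, and KRAB boxes by a residue pattern that can miss divergent ones. The fit was tested on simulated data. The members and gene lists were chosen with earlier results of these data known. Named members were those with the strongest calls at a mean of at least 1 CPM, the 8 highest per length, the most counted of each cluster, and those at the count floor. Alternatives were other scalings, filters, tools (DESeq2 1.42.0, limma 3.58.1), count floors of 20 and 200, a replicate block, and leaving out each library.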

Additional observations from a re-analysis of the deposited data

How the results depend on the processing

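With 2 libraries a group, the calls depended on single libraries, among the members and over all genes tested. In siRAB3IP against control, members were called higher less often than all genes tested without siRAB3IP replicate 2 or without control replicate 1. Leaving out each library in turn gave 3 to 24 members called higher and 0 to 3 lower for siRAB3IP against control, with medians of 0.11 to 0.17; the lowest count of higher calls, 3, came without siRAB3IP replicate 2, and it was 10 without siRAB3IP replicate 1 or without control replicate 1. For siRAB3IP against siCAMSAP1 it gave 11 to 54 higher and 0 to 1 lower (medians 0.16 to 0.27), with 11 without siRAB3IP replicate 2 and 14 without siCAMSAP1 replicate 1. For siCAMSAP1 against control it gave 0 higher and 0 to 3 lower (medians -0.14 to -0.04), with 3 lower without control replicate 1. A fit that leaves an arm with 1 library assumes that it varies like the others.

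For siRAB3IP against control, 1 member (0.429%) was called lower with RLE scaling, with DESeq2 and with limma-voom, where 4.82% to 5.00% of all genes were. Without a filter 34 members were called higher (14.6%, against 4.37% of all genes) and 4 lower (1.72%, against 3.44%). With glmTreat against a fold of 1.2, 3 members were called higher (1.29%, against 1.80% of all genes) and 0 lower (against 1.34%). For siCAMSAP1 against control 1 member (0.429%) was called lower with upper-quartile scaling, with DESeq2 and with GC and length trends removed. The shares of all genes called lower were 0.730%, 0.878% and 0.822%, in that order. Without a filter 6 members were called lower (2.58%, against 0.839% of all genes). For siRAB3IP against siCAMSAP1 there were 63 members higher without a filter (27.0%, against 3.72% of all genes). With glmTreat there were 11 higher (4.72%, against 1.39%) and 0 lower (against 0.940%), and 2 lower with the trends removed (0.858%, against 5.48%). The cause was not tested. The medians kept their sign in every fit with the table's groups, and they changed sign under the titles.

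With a replicate block 67 members were called higher (28.8%, against 13.6% of all genes) and 11 lower (4.72%, against 11.4%) for siRAB3IP against control. For siCAMSAP1 against control 1 was called higher (0.429%, against 3.999%) and 18 lower (7.73%, against 3.36%). For siRAB3IP against siCAMSAP1 96 were called higher (41.2%, against 11.4%) and 4 lower (1.72%, against 10.2%). In each comparison the block also raised the calls over all genes, so a rise in calls is not particular to the members. Same-numbered libraries deviated together (correlations of 0.290, 0.328 and 0.350 over 15697 genes averaging 1 CPM or more). The numbers are not said to mark a shared day or culture, so the values with the block are given only here.

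Groups taken from the sample titles gave 0 higher and 0 lower for each comparison and medians of -0.079 for siRAB3IP against control, 0.051 for siCAMSAP1 against control and -0.12 for siRAB3IP against siCAMSAP1. Under the titles the log2 fold changes for siRAB3IP against control were -0.27 for ZNF841, -0.30 for ZNF98, -0.42 for ZNF829, -0.19 for ZNF600, -0.34 for ZNF677, -0.33 for ZNF274, -0.40 for ZNF880, -0.40 for ZNF468, -0.19 for ZNF787, -0.27 for ZNF793, -0.21 for ZNF583, -0.14 for ZNF772, 0.37 for ZNF235, 0.35 for ZNF233, -0.56 for ZNF442 and -1.15 for ZNF676. For siRAB3IP against siCAMSAP1 they were -0.30 for ZNF404, -0.19 for ZNF578, -0.39 for ZNF677, -0.36 for ZNF737, -0.35 for ZNF829, -0.42 for ZNF880, -0.35 for ZNF274, -0.24 for ZNF528 and 0.040 for ZNF558. None of these was called.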
